A study of Mus musculus with 8 samples.

Results

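*Ngfr*, *Ntrk2*, *Ntrk3*, *Ntf3*, *Bdnf*, *Gfra1*, *Gfra2*, *Ncam1* and *Reln* are genes best known from neurons and glia that were also read in the mesenchymal cells of the mouse liver. They were chosen by name as 9 of the 46517 genes in the count table, and each was followed across the cell classes, the annotated cell types and the clusters of the study. *Ntf3* and *Bdnf* encode neurotrophins, secreted ligands that bind receptor tyrosine kinases of the TRK family, of which *Ntrk2* encodes TRKB and *Ntrk3* encodes TRKC. *Ngfr* encodes p75NTR, a receptor without kinase activity that binds all neurotrophins. *Gfra1* and *Gfra2* encode co-receptors that are anchored in the membrane, bind ligands of the GDNF family and signal through the kinase RET or through NCAM1, a cell adhesion molecule that can carry polysialic acid. *Reln* encodes reelin, a large secreted glycoprotein that positions neurons in the developing brain by binding VLDLR and LRP8. In the liver, hepatic stellate cells (HSC), the pericytes of the sinusoids that store vitamin A, have long been described with several such neural markers.

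The data are single-cell transcriptomes (Smart-seq2, 1 cell per well) from livers of adult C57BL6/J males and females, 8 weeks to 1 year old, either without a transgene or heterozygous for fluorescent reporters driven by *Pdgfrb*, *Pdgfra*, *Acta2*, *Cspg4* or *Cldn5*. No mouse was treated. Mesenchymal cells were sorted on the *Pdgfra*, *Pdgfrb* or *Acta2* reporter or on PDGFRα antibody, endothelial cells on CD31 or VE-cadherin or on the *Cldn5* reporter, immune cells on CD68, cholangiocytes on EPCAM, and hepatocytes were taken without selection, so the number of cells of a type reflects the sort. The 3491 cells form 8 samples, the male and the female pool of each class: 998 and 339 mesenchymal, 655 and 451 endothelial, 255 and 396 immune, and 358 and 39 parenchymal cells. The labels do not name the mouse of a cell, so p values measure the spread between pools, which may be technical. All 339 female mesenchymal cells came from 1 plate, and in this class sex and plate cannot be told apart.

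Levels are given in CPM, the counts of a gene in all cells of a population scaled to one common library total. Total counts per cell ranged from 50042 to 1143895, and the female mesenchymal cells were deeper than the male ones (median 321121 against 182158 counts without spike-ins). Reads were counted without molecular identifiers, and low counts were frequent: of the 617 mesenchymal cells with at least 1 count of *Ngfr*, 368 had fewer than 20. At 1 count or more *Ngfr* was found in 308 of 339 female but 309 of 998 male mesenchymal cells, whereas at 20 counts or more it was found in 96 and 153. Shares of cells therefore use 20 counts, with exact 95% binomial intervals that cover counting error only. The study stated this limit for its removal of low genes, and its use for shares of cells was chosen here. For tests, the counts of all cells that a pool contributed to a cluster were added up and fitted with edgeR, and a gene was called at an adjusted p under 0.05 and a change of at least 1 on the log2 scale. Clusters and cell type names are those of the authors, who clustered the same transcriptomes with a coarser setting (named #m1, #m2 and so on) and a finer one (#m1c, #m2c and so on). The members were among the genes these clusters could be formed on, so their differences between clusters are partly built in.

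The genes differ in length and surroundings, which bears on how their counts can be read. On GRCm38 (GENCODE vM21), *Reln* lies on chromosome 5 (21884454 to 22344702, minus strand) and *Ngfr* on chromosome 11 (95568818 to 95587735, minus strand). *Ntrk2* lies on chromosome 13 (58806569 to 59133970, plus strand) and *Ncam1* on chromosome 9 (49502136 to 49798925, minus strand). *Ntrk3* is on chromosome 7 (78175959 to 78738012, minus strand), *Ntf3* on chromosome 6 (126101412 to 126166910, minus strand), *Bdnf* on chromosome 2 (109674700 to 109727007, plus strand), *Gfra1* on chromosome 19 (58235604 to 58455909, minus strand) and *Gfra2* on chromosome 14 (70890120 to 70979838, plus strand). Merged exons cover from 1.71 kb in *Ntf3* to 30.2 kb in *Ntrk3*, so levels of different genes are compared per kb only. The library kit does not mark strand, and *Reln*, *Ncam1*, *Ntrk2*, *Ntrk3*, *Bdnf* and *Gfra1* overlap antisense genes whose reads cannot be told apart from theirs. Counts per gene also do not separate isoforms, such as the TRKB forms with and without a kinase domain.

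Promoters were available from RefSeq (GRCm38.p6, 250 bases before to 50 after a start) for 6 of the 9 genes. Those of *Reln* and *Ngfr*, the 2 members with the highest level per kb in HSC, and of *Ntrk2*, which was low there, are shown 5′ to 3′ on the strand of the gene, with GC boxes (GGGCGG, or CCGCCC on the other strand) in capitals.
*Reln* (chr5:22344656-22344955): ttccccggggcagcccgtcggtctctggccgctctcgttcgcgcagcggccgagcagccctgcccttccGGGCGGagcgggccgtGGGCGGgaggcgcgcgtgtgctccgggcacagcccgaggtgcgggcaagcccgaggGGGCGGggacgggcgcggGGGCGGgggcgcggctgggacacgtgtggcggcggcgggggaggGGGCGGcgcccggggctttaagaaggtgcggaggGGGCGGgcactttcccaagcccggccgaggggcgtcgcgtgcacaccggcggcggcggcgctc
*Ngfr* (chr11:95587649-95587948): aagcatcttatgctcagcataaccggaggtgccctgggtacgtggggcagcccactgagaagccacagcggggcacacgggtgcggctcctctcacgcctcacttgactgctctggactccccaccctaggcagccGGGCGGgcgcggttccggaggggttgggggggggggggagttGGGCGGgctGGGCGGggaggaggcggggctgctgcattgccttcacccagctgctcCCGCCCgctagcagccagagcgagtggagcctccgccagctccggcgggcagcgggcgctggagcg
*Ntrk2* (chr13:58806319-58806618): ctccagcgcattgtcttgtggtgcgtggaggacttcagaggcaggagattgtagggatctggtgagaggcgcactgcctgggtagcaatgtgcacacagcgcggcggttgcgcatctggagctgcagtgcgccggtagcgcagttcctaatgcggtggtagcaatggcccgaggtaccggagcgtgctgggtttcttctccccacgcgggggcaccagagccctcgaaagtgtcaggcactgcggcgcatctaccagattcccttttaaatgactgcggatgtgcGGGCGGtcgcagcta
The *Reln* window is 80.7% G or C with 47 CpG and 6 GC boxes, the *Ngfr* window 71.7% with 23 CpG and 4 GC boxes, and the *Ntrk2* window 61.3% with 23 CpG and 1 GC box. Over all 32851 promoter windows the median was 52.7% with 7 CpG, and 35.7% held a GC box. No TATAAA was found in the 3 windows, a motif that 13.6% of all windows held on either strand.

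Across the classes, most of the 9 genes were mesenchymal. In the male and female pools, *Ngfr* was at 144 and 218 CPM in mesenchymal cells, and no other pool exceeded 8.92 CPM. *Ntrk2* was at 278 and 276 CPM in mesenchymal cells, against 19.8 and 11.9 CPM in parenchymal and at most 1.73 CPM in endothelial cells. *Ncam1* was at 99.6 and 112 CPM in mesenchymal and 17.4 and 25.9 CPM in endothelial cells. *Reln* was at 420 and 138 CPM in mesenchymal cells and at 3.70 to 33.0 CPM in the other 6 pools. *Ntf3* was at 117 and 166 CPM in mesenchymal and also at 60.2 and 49.3 CPM in endothelial cells, and *Ntrk3* at 22.6 and 35.3 CPM in mesenchymal cells and at most 0.21 CPM elsewhere. The remaining genes had other sources: *Gfra1* was highest in the male parenchymal pool (36.3 CPM, against 6.49 and 8.14 CPM in the mesenchymal pools), *Gfra2* in the female immune pool (143 CPM, against 53.5 and 24.7 CPM), and *Bdnf* in the parenchymal pools (9.94 and 9.06 CPM, against 1.44 and 3.55 CPM).

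In the fit of mesenchymal cells against the mean of the other 3 classes, 8 of the 9 genes were called higher, where 9.47% of all 24046 genes tested were called higher and 11.8% in either direction. *Ncam1* had a log2 fold change of 5.81 ± 0.42 (± the standard error; adjusted p = 0.00030, edgeR with Benjamini-Hochberg adjustment), *Ntrk2* of 7.38 ± 0.72 (adjusted p = 0.00075), *Reln* of 4.70 ± 0.56 (adjusted p = 0.0016) and *Ngfr* of 8.18 ± 1.03 (adjusted p = 0.0020). *Ntf3*, *Ntrk3*, *Gfra2* and *Bdnf* were called at adjusted p of 0.0075, 0.0044, 0.025 and 0.0095 in the same edgeR fit, and *Gfra1* was not (1.62, standard error 1.70, adjusted p = 0.71). The contrast averages log levels over the classes, so that *Bdnf* and *Gfra2* were called although the parenchymal and the female immune pool had higher levels. Without the male mesenchymal pool *Gfra2* was not called, and without the female pool *Bdnf* was not.

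**Figure D1:**
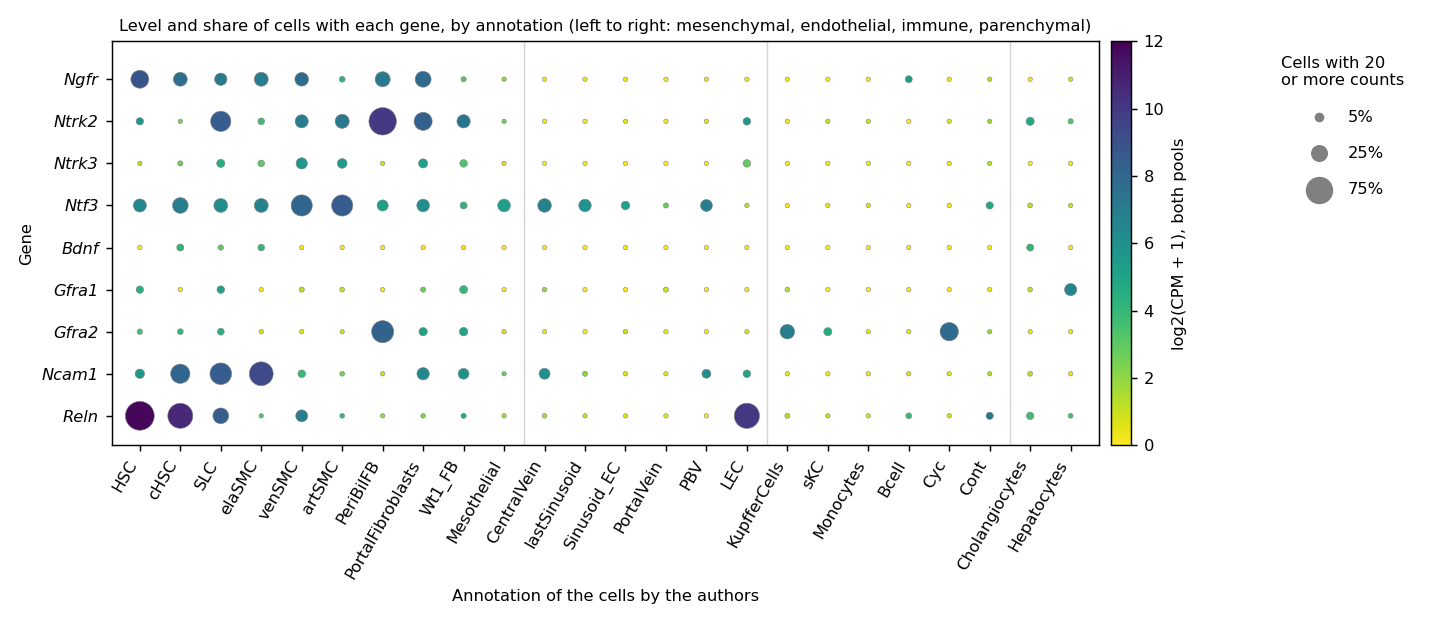
Each dot is 1 gene (rows) in 1 annotated cell type (columns, grouped by class). The color gives log2(CPM + 1) over both pools and the area the share of cells with 20 or more counts, and *Reln* in HSC (95.9% of cells) and *Ntrk2* in peribiliary fibroblasts (86.7%) are the widest-held members.

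Of the ligands, *Ntf3* (neurotrophin-3, the preferred ligand of TRKC) was highest in smooth muscle cells (SMC) and was also found in part of the endothelium. It was highest in arterial SMC (370 and 357 CPM in the male and female pool, 120 of 237 cells) and venous SMC (265 and 309 CPM, 56 of 111 cells), followed by capsular HSC (cHSC; 133 and 97.0 CPM). The 2 types of SMC did not differ beyond their spread, since plates with at least 5 cells gave 302 to 671 CPM in arterial SMC #m2c and 105 to 481 CPM in venous SMC #m8c. Central vein endothelial cells had 118 and 96.4 CPM of *Ntf3*, with 195.8 and 194.3 CPM in their subcluster #e1c. The 14 cells of peribiliary vasculature #e5c had 120 CPM over both pools. Portal vein endothelial cells had 10.3 and 1.73 CPM, with 1 of 114 above the limit. The coarser cluster #e1 was not called for *Ntf3* against the other endothelial clusters (log2 fold change 3.02, adjusted p = 0.15, edgeR with Benjamini-Hochberg adjustment). Against the rest of the mesenchymal clusters, *Ntf3* was called higher in arterial SMC (#m2, log2 fold change 2.23, adjusted p = 0.0014, where 6.26% of all genes were called) and venous SMC (#m7, 2.26, adjusted p = 0.0046, 2.29% of genes) and lower in *Wt1*+ fibroblasts (#m9, fell by 2.67 on the log2 scale, adjusted p = 0.013, 4.18% of genes), all by edgeR with Benjamini-Hochberg adjustment.

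*Bdnf*, the ligand of TRKB, was found in few cells. At 20 counts or more it was found in 13 cells of the whole series, 7 of them among 194 cholangiocytes and 4 among 113 cHSC, with 1 cell each in SLC and large vein SMC. SLC, second layer cells, is a name from earlier histology for cells in the walls of central veins, and the authors assumed that cluster #m5c holds them. The level of *Bdnf* was 16.3 and 9.29 CPM in cholangiocytes and 8.27 and 42.2 CPM in cHSC, and none of 72 HSC of cluster #m7c held a count. Against the rest of their class, the edgeR fits called it higher in #m3, which joins HSC and cHSC (adjusted p = 0.012, where 2.47% of all genes were called), in #m6, large vein SMC (adjusted p = 0.011, 3.75% of genes), and in #p2, cholangiocytes (adjusted p = 0.00036, 37.3% of genes), each with Benjamini-Hochberg adjustment and resting on 4, 1 and 7 cells. The call in #m6 was lost with the pool as a block (adjusted p = 0.124, edgeR with Benjamini-Hochberg adjustment), and the log2 difference was -1.66 in the male and 5.73 in the female pool alone. In the parenchymal fit each hepatocyte cluster entered as 1 male sum, so that the spread came from the 2 sums of cholangiocytes alone and the hepatocyte clusters are assumed to vary like them. Among the other ligands, *Ntf5* was highest in cHSC (31.7 CPM).

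Of the receptors, *Ngfr* was spread widely over the mesenchyme. Annotated HSC had 457 CPM (26 of 73 cells at 20 counts or more), portal fibroblasts 239 CPM (128 of 463 cells), venous SMC 234 CPM, cHSC 210 CPM, and peribiliary fibroblasts, SLC and large vein SMC (annotated elaSMC) 130 to 136 CPM. Arterial SMC and *Wt1*+ fibroblasts were lower, at 18.98 and 9.12 CPM, and held 4 of 237 and 1 of 113 cells above the limit. In neither did the male pool pass 1 CPM (0.65 and 0.69 CPM), and the female plate had 30.6 and 23.3 CPM. Within a type the spread was wide: over 5 plates HSC #m7c ranged from 0.73 to 913 CPM of *Ngfr* (median 356), and over 5 plates venous SMC #m8c from 15.95 to 1888 CPM (median 470). These 2 ranges cover the levels of portal fibroblasts, cHSC, peribiliary fibroblasts, SLC and large vein SMC as well, so the order of the types was not resolved.

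Outside the mesenchyme *Ngfr* was nearly absent. At 20 counts or more it was found in 2 of 57 B cells and in no other cell of the endothelial, immune and parenchymal classes, which allows shares of up to 0.271% of 1106 endothelial and 0.756% of 397 parenchymal cells. In the immune fit *Ngfr* was called higher in the B cell cluster #i5 (adjusted p = 0.011, edgeR with Benjamini-Hochberg adjustment, where 4.72% of genes were, and adjusted p = 0.285 with the pool as a block), a call that rests on those 2 cells and on 1 male sum, which is assumed to vary like the other immune clusters.

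The level of *Ntrk2* was highest in 1 type of fibroblast. Peribiliary fibroblasts, the fibroblasts around bile ducts, had 929 and 1395 CPM in the male and female pool, and 85 of 98 cells held 20 counts or more (86.7%, interval 78.4 to 92.7%). SLC had 377 and 342 CPM and portal fibroblasts 247 and 497 CPM, and their order differed between the pools. HSC had 55.7 and 10.9 CPM in the 2 pools, and cHSC reached no more than 11.3 CPM in any of 7 plates. The 4 plates of peribiliary fibroblasts #m4c ranged from 887 to 1395 CPM, and plates of SLC #m5c from 205 to 1112 CPM, so that the highest SLC plate reached into the range of peribiliary fibroblasts. In the fit over the coarser clusters *Ntrk2* was called higher in #m4 (log2 fold change 3.46, standard error 0.45, adjusted p = 0.00086, where 1.48% of genes were called) and lower in #m6 (fell by 4.23 on the log2 scale, adjusted p = 0.0058), by edgeR with Benjamini-Hochberg adjustment. Against the other 4 fibroblast clusters alone *Ntrk2* was not called in #m4 (2.17, standard error 0.59, adjusted p = 0.34, edgeR with Benjamini-Hochberg adjustment), and of the alternatives that gave a test it was called only without a filter on low counts (2.15, adjusted p = 0.00055).

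*Ntrk3* was found in vascular muscle and portal fibroblasts. Venous SMC had 49.6 CPM (14 of 111 cells at 20 counts or more), arterial SMC 41.5 CPM (21 of 237) and portal fibroblasts 36.6 CPM (35 of 463), whereas HSC (1.43 CPM) and peribiliary fibroblasts (0.87 CPM) had no cell above the limit, which allows shares of up to 4.11% of 73 and 3.06% of 98 cells. *Ntrk3* was called in none of the cluster contrasts. Of the other receptors of the pathway, *Sort1*, a co-receptor for the uncleaved neurotrophins, was highest in the immune cluster #i7c (326 CPM), with 208 CPM in arterial SMC. Between the classes, *Sorcs3* and *Maged1* of this pathway were called higher in mesenchymal cells, with log2 fold changes of 6.92 and 2.16, against a median of 0.02 over all genes.

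The GDNF co-receptors were placed differently from each other. *Gfra2*, which binds neurturin, was highest in peribiliary fibroblasts (300.0 and 289 CPM in the male and female pool, 54 of 98 cells) and in cells of the immune class, with 25.7 and 143 CPM in Kupffer cells and 117 and 273 CPM in the 24 cells labelled Cyc. Over plates, #m4c ranged from 219 to 334 CPM, above every plate of SLC (0.56 to 119 CPM), cHSC (0 to 34.4 CPM) and HSC (0 to 18.7 CPM). Against all other mesenchymal clusters *Gfra2* was called higher in #m4 (log2 fold change 5.45, standard error 0.55, adjusted p = 7.9e-05, edgeR with Benjamini-Hochberg adjustment) and lower in #m2, #m6 and #m7, the 3 SMC clusters. Against the other 4 fibroblast clusters it was not called by edgeR (3.14, standard error 0.71, adjusted p = 0.18), where 0.0626% of 22365 genes were called, 0.0224% higher and 0.0402% lower, but was called by DESeq2 (3.25, adjusted p = 9.4e-06) and by edgeR without a filter on low counts (adjusted p = 0.044), each with Benjamini-Hochberg adjustment. In that contrast *Ncam1* and *Ntrk3* had log2 fold changes of -5.44 and -5.13 and were not called (adjusted p = 0.081 and 0.24 from edgeR, Benjamini-Hochberg).

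*Gfra1*, which binds GDNF, was highest in hepatocytes. Male hepatocytes had 91.3 CPM (31 of 203 hepatocytes of both sexes at 20 counts or more), with 171 CPM in #p4c and 156 CPM in #p6c, and cholangiocytes 1.20 CPM. In mesenchymal cells it was found at 20 counts or more in 19 cells, 6 of them *Wt1*+ fibroblasts, 4 SLC, 4 portal fibroblasts and 3 HSC. The parenchymal fit called it lower in cholangiocytes #p2 (fell by 7.43 on the log2 scale, adjusted p = 1.7e-05) and higher in hepatocyte clusters #p3 and #p5 (3.11 and 2.91, adjusted p = 0.019 and 0.044, edgeR with Benjamini-Hochberg adjustment, where 7.07% and 3.60% of genes were). The 2 hepatocyte clusters held male cells only and entered as 1 sum each, with a spread taken from cholangiocytes, and of the 2 female hepatocytes none had a count. *Ret*, the kinase through which both co-receptors signal, passed 20 counts in 2 cells of the series, 1 of them mesenchymal, so that its 125 CPM in the 14 cells of peribiliary vasculature #e5c rests on at most 1 cell above the limit. The ligands *Artn* and *Nrtn* were highest in arterial SMC (84.8 CPM) and in fibroblasts #m17c (29.8 CPM), and the related co-receptor *Gfra4* in #m17c (81.8 CPM). These 3 were the genes called higher in mesenchymal cells among 5 tested of the 8 other genes of the family, where 9.47% of all genes were called higher.

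*Ncam1* was highest in 3 groups of mesenchymal cells. Large vein SMC had 628 and 630 CPM in the male and female pool (22 of 34 cells at 20 counts or more, 64.7%, interval 46.5 to 80.2%), SLC 393 and 295 CPM (47 of 89 cells) and cHSC 343 and 91.1 CPM (47 of 113 cells). HSC had 51.1 and 6.71 CPM, and arterial SMC, venous SMC and peribiliary fibroblasts 17.2 CPM or less in either pool. Plates of cHSC ranged from 91.1 to 544 CPM and plates of SLC from 2.35 to 609 CPM, so that cHSC and SLC were not separated. In the endothelium *Ncam1* was at 67.0 and 64.2 CPM in the central vein (36 of 302 cells), and at 74.3 CPM over both pools in peribiliary vasculature #e5c.

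SLC and large vein SMC together were compared with the other 3 mural clusters, the arterial and venous SMC. The authors listed SLC #m5c with the mural clusters but found it more similar to fibroblasts by a gene score. *Ncam1* was called higher (log2 fold change 5.67, standard error 0.86, adjusted p = 0.00025, edgeR with Benjamini-Hochberg adjustment), where 0.445% of 21329 genes were called higher, 0.136% lower and 0.581% in either direction, and none of the other 8 genes was called. *Bdnf* came nearest (adjusted p = 0.093, edgeR with Benjamini-Hochberg adjustment), on 1 cell in each of the 2 clusters. Of the fibroblast markers looked up, *Fmod*, *Dpt*, *Mfap4* and *Col1a1* were called higher in the same contrast. *Gpx3*, *Pdgfra*, *Pi16*, *Thy1*, *Col15a1* and *Gli1* were not. For cHSC against HSC, the log2 fold change of *Ncam1* was 2.28 (standard error 1.63, 95% interval -0.90 to 5.47, adjusted p = 1 from edgeR), and no member was called, where 0.0234% of all genes were. *Ntrk2* stood at -3.11 (standard error 1.02, adjusted p = 1 from edgeR), and the sizes of these differences are known only within wide intervals. HSC entered this contrast with the male sum alone, because the female pool held 4 of them. Of the genes related to *Ncam1*, *Alcam*, a marker of cHSC, was highest in cHSC (1519 CPM). *St8sia2* and *St8sia4*, which encode the enzymes that attach polysialic acid to NCAM1, were highest in endothelial cluster #e11c (122 CPM), where *Ncam1* was at 125 CPM, and in immune cluster #i7c (565 CPM).

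*Reln* was the member that marked stellate cells. HSC had 3606 CPM in the male pool and 3199 CPM in the 4 female cells, and 70 of 73 held 20 counts or more (95.9%, interval 88.5 to 99.1%). In cHSC the level was 1529 and 1624 CPM, with 81 of 113 cells above the limit (71.7%, interval 62.4 to 79.8%). Lymphatic endothelial cells, which are not mesenchymal, had 1289 and 966 CPM (16 of 22 cells). SLC had 503 CPM in the male pool but 36.4 CPM on the female plate, and venous SMC 159 and 51.5 CPM. Over plates HSC ranged from 2372 to 3965 CPM and cHSC from 992 to 2604 CPM, ranges that overlap, whereas the plates of SLC spanned 7.01 to 1681 CPM. Per kb of exon, HSC had 151 CPM of *Reln* and 133 CPM of *Ngfr*.

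For HSC and cHSC against the other mesenchymal clusters, the log2 fold change of *Reln* was 7.73 (standard error 0.65, adjusted p = 2.8e-09, edgeR with Benjamini-Hochberg adjustment), where 1.89% of 21329 genes were called higher. *Ntrk2* was called lower (fell by 3.08 on the log2 scale, standard error 0.76, adjusted p = 0.019, edgeR with Benjamini-Hochberg adjustment), where 0.338% of genes were. *Ngfr* had a log2 fold change of 2.33 (standard error 0.68) and was not called (adjusted p = 0.066), but was with the pool as a block (2.72, adjusted p = 0.019), both from edgeR with Benjamini-Hochberg adjustment. The other alternatives that gave a test split for *Ngfr*, with 4 calls in 7. *Ncam1* (1.24, standard error 0.68) and *Ntf3* (1.01, standard error 0.74) were not called, and *Bdnf* had no usable estimate, because most clusters held no count. Outside the mesenchyme, *Reln* was called in the lymphatic cluster #e4 against the other endothelial clusters (10.45, standard error 0.61, adjusted p = 5.5e-08, edgeR with Benjamini-Hochberg adjustment, where 6.80% of genes were called) and in hepatocyte cluster #p1 (4.18, adjusted p = 0.017, same test, 8.03% of genes), where 1 of 64 cells passed 20 counts and the cluster entered as 1 male sum, with a spread taken from cholangiocytes. *Ntrk2* was also called higher in #e4 (8.57, adjusted p = 0.00079, edgeR with Benjamini-Hochberg adjustment), a result of 1 of 22 cells that turned to -5.17 and was not called with at least 10 cells per sum.

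The receptors of reelin were highest in other cells than *Reln*. *Vldlr* was highest in *Wt1*+ fibroblasts #m12c (307 CPM) and *Lrp8* in immune cluster #i7c (311 CPM), and *Dab1*, the adaptor that both receptors engage, in cholangiocytes (92.8 CPM). *Vldlr* was called lower in HSC and cHSC (fell by 5.57 on the log2 scale, adjusted p = 0.041, edgeR with Benjamini-Hochberg adjustment). Of 13 further neural genes that had been listed for stellate cells, 7 were called higher in HSC and cHSC (*Cadm3*, *Ntm*, *Gfap*, *Mapt*, *Lrrn3*, *Robo2* and *Cdh2*) and none lower, where 1.89% of all genes were called higher, and the median log2 fold change of the 13 was 3.37 against 0.17 over all genes. The list was chosen with earlier results of these data known, so its count and median are a description and cannot serve as a test. *Mapt*, which encodes the microtubule protein tau, was at 202 CPM in HSC and 51.3 CPM in cHSC, and *Cdh2*, N-cadherin, at 312 CPM in HSC and 244 and 243 CPM in the 2 venous SMC clusters. *Gfap*, the classical glial marker of stellate cells, reached 10.98 CPM in cHSC, its highest cluster. *Nes* and *Sncg* were highest in SMC, at 203 CPM in large vein SMC and 734 CPM in arterial SMC.

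**Figure D2:**
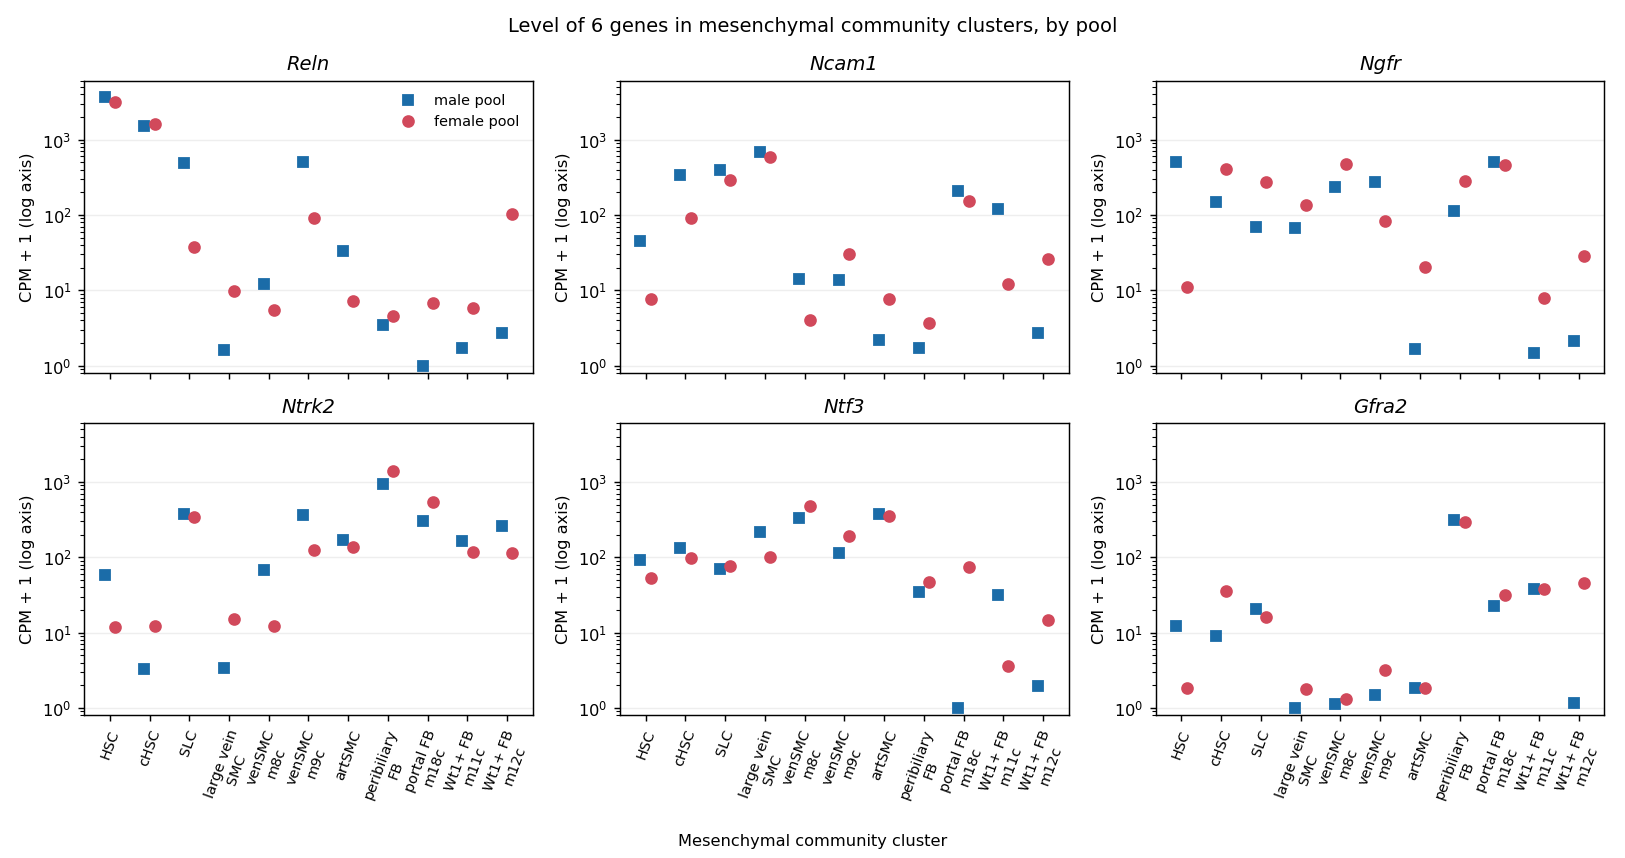
Level of 6 members (CPM + 1, log axis) in 11 mesenchymal clusters, with squares for the male and circles for the female pool. *Reln* stands at 1529 CPM or above in HSC and cHSC of both pools, *Ntrk2* and *Gfra2* peak in peribiliary fibroblasts, and the pools lie far apart for *Ngfr* in HSC, arterial SMC and *Wt1*+ fibroblasts.

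Over all 30 coarser clusters, each set against the rest of its class, 27 of 222 member contrasts were called (18 higher and 9 lower), or 12.2%, where 3.41% of all contrasts were. In the mesenchyme 18 of 90 were called, where 2.21% of all contrasts were, and in the endothelial class 2 of 48 (1.59%), in the immune class 2 of 49 (2.37%) and in the parenchymal class 5 of 35 (11.6%). With the pool as a block 18 were called, 16 of them among the 27. The block left no residual degrees of freedom in the parenchymal fit. *Ntf3* in immune cluster #i4 (log2 fold change 6.55, adjusted p = 0.020, edgeR with Benjamini-Hochberg adjustment, where 3.64% of genes were called) rests on 1 of 48 cells and was not called with the block (adjusted p = 0.17). In the mesenchyme the block removed the calls of *Reln* and *Ncam1* in #m5, the coarser cluster that holds most SLC (adjusted p = 0.089 and 0.051, against 0.021 and 0.024 without it, where 0.487% of genes were called), of *Ntrk2* in #m3 (adjusted p = 0.065) and of *Bdnf* in #m6 (adjusted p = 0.124, edgeR with Benjamini-Hochberg adjustment throughout), and it added *Ngfr* as lower in #m2 and #m9. For portal fibroblasts #m1 against the other fibroblasts, *Ngfr* had a log2 fold change of 1.64 (standard error 0.95, adjusted p = 0.99, edgeR). In that contrast edgeR called 0.00% of 22365 genes, 1431 of which had an unadjusted p under 0.05, and DESeq2 called 107.

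Single mesenchymal cells often held more than 1 of the 9 genes. At 20 counts or more 483 of 1337 cells (36.1%) held at least 2, over clusters of at least 10 cells from 73.6% of portal fibroblasts #m18c, a cluster of 87 cells of which 81 came from the female plate, and 67.4% of peribiliary fibroblasts #m4c to 6.67% of *Wt1*+ fibroblasts #m12c. The highest share over the 36 pairs was that of *Ntrk2* among cells with *Gfra2*: of the 94 cells with *Gfra2*, 70 also held *Ntrk2* (74.5%, interval 64.4 to 82.9%), against 25.7% of the cells without *Gfra2*. Both pools gave this order, with 75.3% against 23.3% in male and 70.6% against 32.3% in female cells. Within peribiliary fibroblasts #m4c the shares were 94.4% and 75.6%, with overlapping intervals (84.6 to 98.8% and 59.7 to 87.6%).

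The genes found beside *Ngfr* are given with their share among the cells of the same cluster without *Ngfr*, and these differences were not tested. In HSC #m7c, 25 of 26 cells with *Ngfr* held *Reln*, as did 95.7% of the cells without it, and 0 held *Ntrk2*, which allows a share of up to 11.5%, against 6.52% of the cells without *Ngfr*. In peribiliary fibroblasts #m4c, all 23 cells with *Ngfr* and 81.9% of those without it held *Ntrk2*, and no cell of the cluster held 20 counts of *Reln* or *Ncam1*. In portal fibroblasts #m18c, 36 of 56 cells with *Ngfr* held *Ntrk2* (64.3%, against 58.1% of those without it) and 21 held *Ncam1* (37.5% against 22.6%). In cHSC 20 of 23 cells with *Ngfr* held *Reln* and 11 held *Ncam1* (47.8%, against 40.0% of those without it). Among the cHSC without *Ngfr*, 67.8% held *Reln* (interval 57.1 to 77.2%) against 87.0% of those with it (66.4 to 97.2%), and these intervals overlap. *Reln* and *Ncam1* were found together in 34 of 81 *Reln*+ cHSC (interval 31.1 to 53.5%), while 40.6% of cHSC without *Reln* held *Ncam1*.

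**Figure D3:**
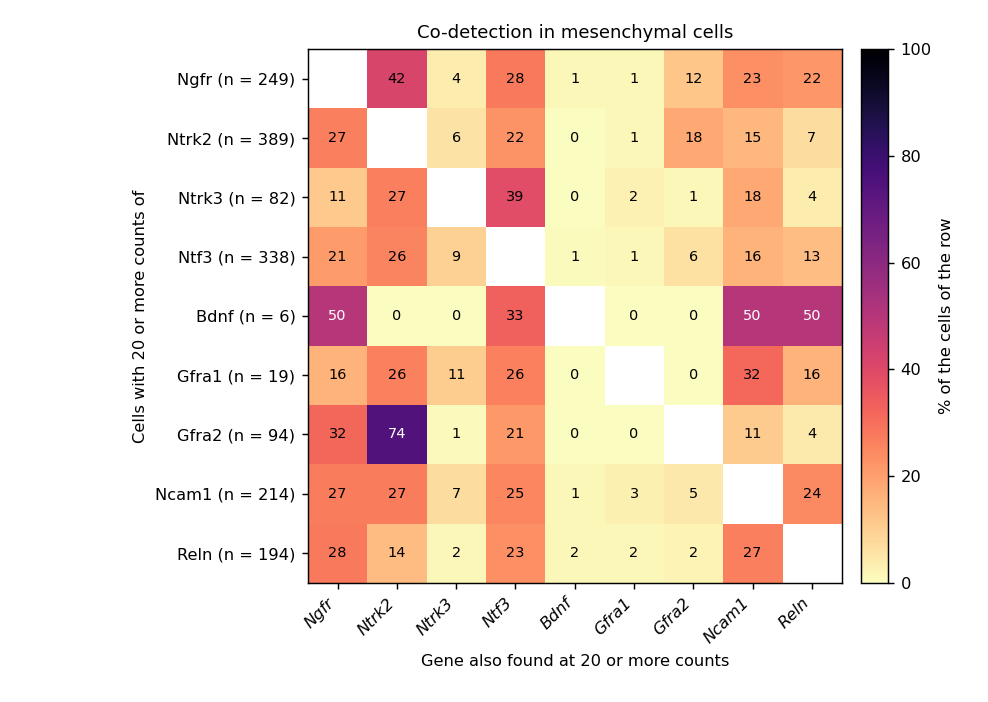
Share of the cells with 20 or more counts of the gene in the row (n in brackets) that also held 20 or more counts of the gene in the column, over 1337 mesenchymal cells. *Gfra2* with *Ntrk2* stands out at 74%, while the row of *Bdnf* rests on 6 cells.

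The detection limit changed the size of these overlaps. *Ngfr* and *Ncam1* were found together in 354 mesenchymal cells at 1 count or more, in 58 cells at 20 counts or more, and in 122 cells at 1 count or more after each cell was thinned to 50000 counts. At 1 count or more, 57.4% of *Ngfr*+ and 29.3% of *Ngfr*- cells held *Ncam1*. At 20 counts or more the shares were 23.3% (interval 18.2 to 29.0%) and 14.3% (12.3 to 16.6%). In male cells alone they were 15.7% and 14.1%, and after thinning 20.2% and 21.1%, with overlapping intervals in both cases. On the female plate they were 35.4% and 15.2%. For *Gfra2* and *Ntrk2* the thinned shares were 67.3% and 41.0% over all cells, and for *Ngfr* and *Reln* 39.5% and 23.7%. *Ntrk3* and its ligand *Ntf3* gave 40.7% and 36.0% after thinning, with overlapping intervals.

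**Figure D4:**
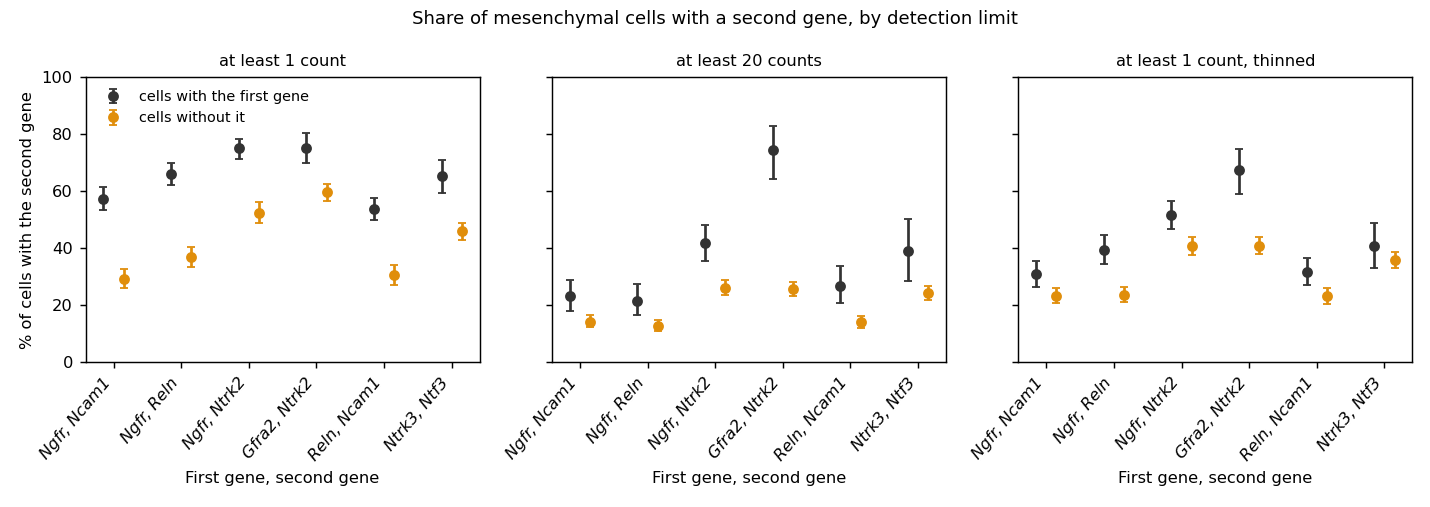
Share of mesenchymal cells with the second gene of a pair among cells with (dark) and without (orange) the first gene, at 3 detection rules, with exact 95% binomial intervals. *Ngfr* and *Ncam1* stand at 57.4% against 29.3% at 1 count and 30.9% against 23.3% in thinned cells, and *Gfra2* and *Ntrk2* at 75.3% against 59.7% at 1 count, 74.5% against 25.7% at 20 counts and 67.3% against 41.0% in thinned cells.

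Levels of marker genes were looked up for some of the cell types, with a mixed result. *Lrat* was highest in HSC #m7c (1932 CPM), with 1467 CPM in SLC. *Wt1* was at 416 CPM in cHSC and 310.0 CPM in *Wt1*+ fibroblasts #m12c, and *Mmrn1* was at 3900 CPM in lymphatic endothelial cells. Of the other HSC markers, *Rgs5* was highest in venous SMC #m8c (2319 CPM, against 775 CPM in #m7c) and *Colec11* in venous SMC #m9c. The rest were highest in #m7c. Of the other cHSC markers, *Alcam* was highest in cHSC. *Gpx3* and *Fmod* were highest in portal fibroblasts #m10c, *Mfap4* in #m18c and *Dpt* in #m11c. Because the members are also genes of peripheral nerves, Schwann cell and neuron markers were counted in the same cells. Of 9 Schwann cell markers, 2 or more passed 20 counts in 1 of 1337 mesenchymal cells, a mesothelial cell, and the summed level of the list ranged from 2.19 to 76.7 CPM over the mesenchymal clusters of at least 10 cells. *Sox10* was at 0 or nearly so in all of them. Of 8 neuron markers, 2 or more passed 20 counts in 2 mesenchymal cells, and the summed level was 18.03 CPM in HSC, with *Rbfox3* alone at 17.6 CPM, and 7.32 CPM in cHSC. Over the mesenchymal clusters of at least 10 cells this sum ranged from 0.034 to 133 CPM. The part of nerve cells in the members' levels was not tested beyond these counts.

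Genes whose levels followed the members most closely were looked up over 46 clusters of at least 10 cells from all 4 classes, by Pearson's r of log2(CPM + 1) among 12870 genes. The clusters share plates and mice, and r is given as a description. *Bmp5* (0.91), *Foxf1* and *Sprn* were most like *Ngfr*, *Loxl1* (0.91), *Abca8a* and *Dpt* were most like *Ntrk2*, and *Atp1b2* (0.94), *Pgf* and *Tnnt2* were most like *Ntrk3*. For *Ntf3* they were *Gm17315* (0.85), *Prkg1* and *Arhgef25*, for *Gfra2* *Slc1a3* (0.83), *Rab7b* and *Lpl*, for *Gfra1* *Mtarc1* (0.86) and *Gm21973*, and for *Bdnf* *Cnksr1* (0.73), *Sptb* and *Cdh3*. The closest genes to *Ncam1* and *Reln* were *Gm11149* (0.91) and *Gm10475* (0.89), which are annotated antisense to them and whose reads an unstranded kit cannot separate. Next came *Fbln5* and *Thsd7a* for *Ncam1*, and *Nr1h5*, which encodes a nuclear receptor, and *Gdf2*, which encodes BMP9, for *Reln*.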

How the data were processed

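Livers of adult male and female mice were dissociated and single cells were sorted into plates for Smart-seq2 and read from 1 end. The values used are raw counts per gene and cell that the authors deposited: the authors mapped reads to the genome, assigned them to genes, kept ERCC spike-ins and removed cells of low quality, likely doublets (by their number of genes) and cells that looked contaminated. The submitters' processing notes name bcl2fastq, Bowtie, Bowtie2, featureCounts, Subread, Seurat and builds GRCm38 and mm10, without roles, so that the aligner used for these counts is not settled. Whether duplicate reads were removed is not given in the sources used here. No doublet caller was run here.

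After the 92 ERCC spike-ins were set aside, counts of the cells (at least 5) that a pool gave to a cluster or class were added up and fitted with edgeR 4.0.16 in R 4.3.3 (TMM, filterByExpr, quasi-likelihood test, Benjamini-Hochberg adjustment over every gene in the fit). Calls needed an adjusted p under 0.05 and an absolute log2 fold change of at least 1. The study tested single cells as replicates, whereas pools are the replicates here. Alternatives were DESeq2 1.42.0, its size factors, no filter, sums of at least 3 or 10 cells, sums per plate, thinning of cells to 50000 counts, a block for the pool, and leaving out each mesenchymal pool. Sums of a class come from the same pools, which makes the pool number a pairing. As a check, residuals of same-pool sums were correlated over 55 pairs of clusters (r from 0.02 to 0.19, 26 pairs over 0.1). On simulated counts with known changes, the HSC and cHSC contrast recovered 16% of genes changed by 1 and 100% changed by 3 on the log2 scale (17862 genes), and the class contrast 2% and 91% (23479 genes). The simulation gave every gene the same dispersion and changed only genes with higher counts. In the real HSC and cHSC contrast, *Ntrk3* at -3.71 (standard error 1.65) was not called. The recovered shares therefore do not give the power for the members. Levels, shares and figures were made with Python 3.11.15, numpy 2.4.6, scipy 1.17.1, pandas 2.3.3 and matplotlib 3.10.9. A share of 0 is given with the limit that 3 cells would set.

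All 9 members are described. Other genes are named from lists of the neurotrophin, GDNF, NCAM and reelin systems and of neural and marker genes, where they reached 10 CPM in a cluster, and as the 3 genes most like a member; a few genes of these lists are not reported here. *Rbfox3* and the clusters whose plate ranges are given were singled out with their values known. The members, lists and tests were chosen with earlier results of these data known.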

Additional observations from a re-analysis of the deposited data

Results flagged for a closer look

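Contrasts of each cluster against the rest of its class were not searched for differences in sign. In 9 of the contrasts between named groups of mesenchymal clusters, the male and the female pool pointed in opposite directions. With 1 pool only there is no spread to fit, so each value is the difference of mean log2 CPM (prior count of 2), with equal weight for each cluster, and its sign can differ from that of a ratio of mean CPM. The male value is given first. The difference between the pools was not tested, and none of these genes was called in these contrasts by edgeR. For HSC and cHSC against the other mesenchymal clusters, *Gfra1* was at 2.07 in the male and -0.77 in the female pool. For SLC and large vein SMC against the other mural clusters, *Ntrk2* was at -2.49 and 0.29, *Gfra1* at 2.86 and -0.91 and *Reln* at -1.69 and 0.38. For peribiliary fibroblasts against the other fibroblasts, *Ntf3* was at -0.83 and 0.74 and *Reln* at 0.23 and -2.49. For portal fibroblasts #m1 against the other fibroblasts, *Ntrk2* was at -0.15 and 0.34, *Gfra1* at -0.60 and 2.17 and *Gfra2* at 0.025 and -1.97. All female values come from 1 plate, so that sex and plate cannot be told apart.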

How the results depend on the processing

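The called differences of *Reln* in HSC and cHSC and of *Ncam1* in SLC and large vein SMC were called under each alternative that gave a test (7.51 to 7.88 and 5.62 to 6.04 on the log2 scale). With a pool left out they ranged from 6.98 to 8.28 and from 5.58 to 6.27, without a test. *Gfra2* in peribiliary fibroblasts against other fibroblasts was called by DESeq2 (3.25) and without a filter (3.12) and by no other alternative, and ranged from 3.14 to 3.18 with a pool left out. *Ngfr* in #m1 ranged from 1.80 to 2.44 with a pool left out, *Ncam1* in cHSC against HSC was 2.95 without the female pool, and neither was called under any alternative. The 8 genes called between the classes became 7 with either mesenchymal pool left out and with sums per plate, where *Bdnf* was not tested. The 27 calls over clusters became 44 with DESeq2, 58 without a filter and 18 with the pool as a replicate block, and 23 to 29 otherwise. The 354 cells with *Ngfr* and *Ncam1* became 58 at 20 counts, 122 after thinning, and 106 to 248 with a pool left out. Against the rest of their class, *Ntrk2* in #e4 turned to -5.17 with at least 10 cells per sum, *Bdnf* in #m6 ranged from -1.66 to 5.73 with a pool left out, and *Ntf3* in #i4 turned to -2.88 with sums per plate, which all rest on few cells. Beside the calls named here and in the report, the replicate block changed none. Counts of all genes called moved with the tool: DESeq2 called 4321 between the classes (edgeR 2838), 142 for cHSC against HSC (5), 568 for the mural contrast (124), 377 for peribiliary fibroblasts (14) and 107 for #m1 (0), and for HSC and cHSC 497 against 475, of which 175 and 403 were higher. With sums per plate, HSC and cHSC had 1151 calls. Leaving out a pool gave no test for the cluster fits and no cHSC against HSC value without the male pool. Depth limits what few cells can show: the female pool held 4 HSC and 2 hepatocytes.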
